A study of Saccharomyces cerevisiae with 39 samples.

Results

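Newly made RNA was compared between a budding yeast strain whose Abf1 can be pulled out of the nucleus and its untagged parental strain, both after 90 min of rapamycin. The drug and its time were the same in both groups, so the groups differed in the tag on Abf1 and in the depletion that follows from it. The libraries were chosen by their labels, 3 Abf1 90 min and 3 WT 90 min libraries, which are 6 of the 39 libraries in the series. Abf1 is an essential DNA binding protein of yeast, a general regulatory factor that binds promoters and replication origins and keeps the bound region clear of nucleosomes. In the anchor-away method a protein is fused to the rapamycin binding domain FRB, and rapamycin ties it to a ribosomal protein fused to FKBP12, which leaves the nucleus during ribosome assembly. In 4tU-seq, cells take up 4-thiouracil for a few minutes, and only the RNA made in that window is biotinylated, purified and sequenced.

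Both strains were MATalpha, in the BY4742 background, and carried the tor1-1 allele, a deletion of FPR1 and an RPL13A-FKBP12 fusion with a nourseothricin marker. The Abf1 strain carried in addition Abf1 fused to FRB, yEGFP and 3V5 with a hygromycin marker, and the study's methods call the WT strain its parent. All cells grew in synthetic complete medium with glucose, received 7.5 µM rapamycin for 90 min and were labelled with 5 mM 4-thiouracil for 6 min before harvest. The 0 min groups of both strains, used below as the baseline, received solvent for 90 min in place of rapamycin, and every other condition was shared. According to the methods the replicates were biological. Whether the tagged strain was 1 clone or several was not stated, so effects of the tag and of the clone cannot be told apart. The study describes the tagged strain as growing more slowly than its parent even without rapamycin.

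Total counts lay between 3500982 and 4896585 in the Abf1 90 min libraries and between 5316377 and 7265281 in the WT 90 min libraries. Replicates differed more in the tagged strain. The biological coefficient of variation was 18.9% at Abf1 90 min and 4.38% at WT 90 min, against 15.2% at Abf1 0 min and 5.17% at WT 0 min. Among the Abf1 90 min libraries, replicate 2 stood furthest from the others, with a chi-square per degree of freedom of 35.4 against replicate 1 and 23.96 against replicate 3, where replicates 1 and 3 gave 9.73. WT pairs gave 2.27 to 4.17. The methods describe no reference RNA of known amount, so each value is a share of its own library and a change common to every gene cannot be detected. Where groups of genes are described below, counts are of the members tested.

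After 90 min of rapamycin the tagged strain made less RNA from many genes and more from fewer. Of 5722 genes tested, 805 were lower in Abf1 than in WT (14.1%) and 534 were higher (9.33%), where a call needed an edgeR adjusted p under 0.01 and a fold change over 1.5. The decreases were the larger ones. The median log2 fold change was -1.27 among the genes called lower and 0.87 among those called higher, and 176 genes were lower by more than 4-fold while 56 were higher by more than 4-fold. Over all genes the median was 0.05, with quartiles at -0.32 and 0.37. The 3 Abf1 libraries lay entirely below the 3 WT libraries for 1551 genes (27.1%) and entirely above them for 1713 (29.9%). With each single library left out in turn, 680 of the 805 lower calls and 279 of the 534 higher calls held in every case. Lower calls made up 60.1% of all calls, but 48.2% with upper-quartile scaling, which shifted the median of all genes by 0.10.

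**Figure D1:**
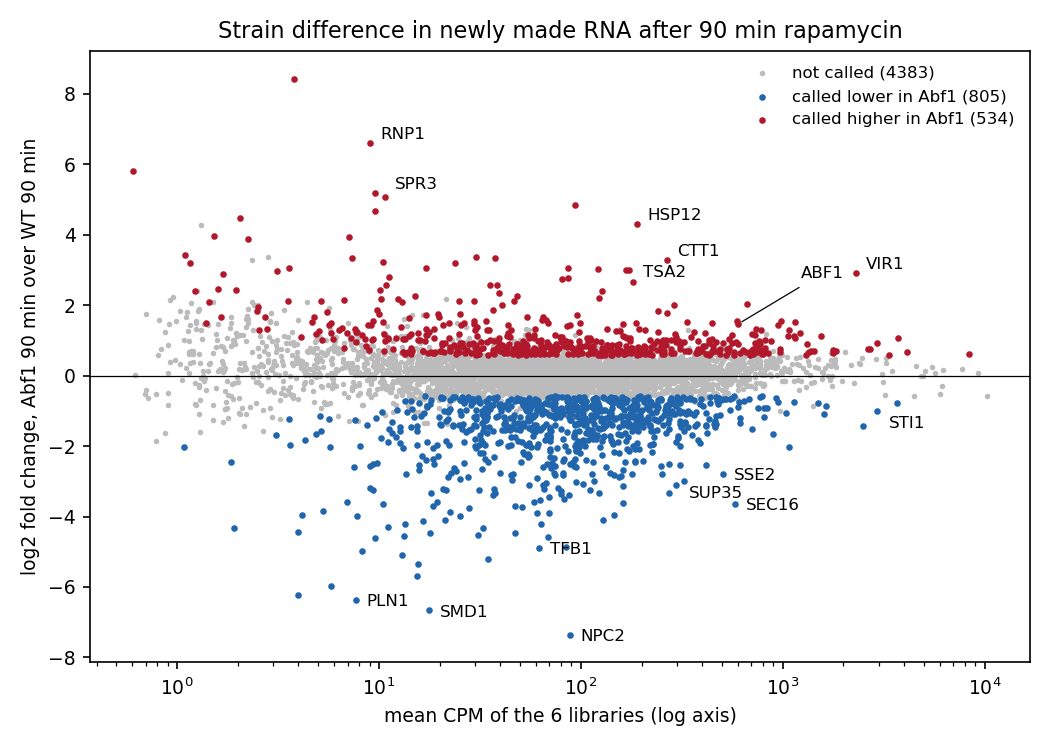
Each point is 1 of the 5722 genes tested, with its mean CPM over the 6 libraries on a log axis and its fitted log2 fold change, Abf1 90 min over WT 90 min, on the vertical axis. The 805 genes called lower (blue) reach -7.35 at NPC2, and the 534 called higher (red) are fewer and mostly closer to 0. The highest point, SPO19, had no count in the WT libraries, so its fitted value is not a measured size.

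The genes of the strain construction were read first. FPR1, deleted in both strains, had 0 counts in all 6 libraries, where 3 counts would be 0.413 to 0.857 CPM (counts scaled to the library size, with TMM factors). ABF1 itself (YKL112W, chrXI:226570-228765) stood at 987, 729 and 939 CPM in Abf1 90 min, against 310, 333 and 317 CPM in WT 90 min. The groups did not overlap, and newly made ABF1 RNA was higher in the tagged strain by 1.47 on the log2 scale (SE 0.12, edgeR adjusted p = 1.8e-11). The tagged strain was already higher by 0.99 at 0 min, and the change of that difference, 0.47 (SE 0.17, edgeR adjusted p = 0.0479), was not called. Anchor-away removes the protein from the nucleus and leaves the gene in place, so ABF1 RNA does not measure depletion. TOR1, the kinase that rapamycin inhibits in ordinary strains, stood at 1121, 919 and 1042 CPM in Abf1 90 min and at 709, 705 and 719 CPM in WT 90 min, a log2 fold change of 0.53 (SE 0.10) that stayed under the fold limit except with upper-quartile scaling (0.63). RPL13A, the anchor gene, did not pass the test (-0.22, SE 0.18, edgeR adjusted p = 0.33).

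As a check of the MATalpha label, the alpha-factor gene MF(ALPHA)1 stood at 319, 590 and 1031 CPM in Abf1 90 min, against 1419, 1225 and 1259 CPM in WT 90 min, and was not called (log2 fold change -1.01, SE 0.55, edgeR adjusted p = 0.137). Of the a-cell genes, the a-factor exporter STE6 stood at 61.1 to 63.1 CPM in Abf1 90 min and 40.1 to 46.0 CPM in WT 90 min and was not called (0.54, SE 0.12). Of the 6 alpha-cell genes and the 3 a-cell genes tested none was called. STE6 crossed the fold limit with upper-quartile scaling (0.64) and without WT 90 min replicate 2 (0.60), and MF(ALPHA)1 passed with the replicate number as a block (-1.26, edgeR adjusted p = 0.00186). All 6 libraries held far more alpha-factor RNA than STE6 RNA as counts.

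The genes with the lowest fold changes came close to silence in the tagged strain. NPC2 (YDL046W, chrIV:371240-371761), which encodes a sterol-transfer protein of the vacuole, had 3, 7 and 3 counts in the Abf1 90 min libraries, against 1280, 982 and 987 counts in the WT 90 min libraries. As CPM this was 0.738, 1.47 and 0.864 in Abf1 90 min and 174, 172 and 181 in WT 90 min, or -7.35 on the log2 scale (SE 0.42; edgeR adjusted p = 3.31e-15). The level in WT was 169.6 times that in the tagged strain by summed counts (95% counting interval 99.1 to 319). SMD1 (YGR074W, chrVII:635712-636152), a core Sm protein of the spliceosome, had 1, 2 and 1 counts in Abf1 90 min, against 250, 196 and 201 in WT 90 min, and differed by -6.66 on the log2 scale (SE 0.39), a ratio of 109.8 in favour of WT (42.7 to 404). For both genes the highest Abf1 library lay far below the lowest WT library. PLN1 (YKR046C, chrXI:524223-525074), a protein of lipid droplets, had 2, 0 and 0 counts in Abf1 90 min and 113, 78 and 90 in WT 90 min, a ratio of 95.4 in favour of WT whose counting interval ran from 26.2 to 791. With so few counts in the tagged strain, the sizes of these decreases are known only within the intervals given.

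The other genes among the 10 lowest were RSM27, SNR55, SNR57, PRO3, SWM1, PHO84 and TFB1. RSM27 (YGR215W, chrVII:922175-922507), a protein of the small mitochondrial ribosomal subunit, stood at 0.492, 0.631 and 0.576 CPM in Abf1 90 min and 30.1, 29.5 and 31.8 CPM in WT 90 min (log2 fold change -5.69, SE 0.56). PRO3 (YER023W, chrV:201076-201936), the last enzyme of proline synthesis, stood at 1.72, 1.47 and 2.30 CPM in Abf1 90 min and 62.6, 74.8 and 65.6 CPM in WT 90 min (-5.22, SE 0.55). TFB1 (YDR311W, chrIV:1085065-1086993), a core subunit of the general transcription factor TFIIH, stood at 2.21, 5.47 and 4.32 CPM in Abf1 90 min and 125, 117 and 120 CPM in WT 90 min (-4.89, SE 0.29). None of these groups overlapped. SWM1, a subunit of the anaphase-promoting complex, differed by -5.09 (SE 0.54), with 6, 3 and 0 counts in Abf1 90 min against 190, 144 and 137 in WT 90 min. The small nucleolar RNAs snR55 and snR57, guides for rRNA methylation that lie side by side on chromosome XII, differed by -5.97 (SE 0.76) and -5.34 (SE 0.55). The adjacent SNR61, chosen after its values were seen, had 1, 1 and 0 counts in Abf1 90 min and 21, 25 and 21 in WT 90 min. None of the 3 snoRNA genes had overlapping groups.

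PHO84 (YML123C, chrXIII:24037-25800), the high-affinity phosphate transporter, was a different case. It stood at 0.738, 0.421 and 0.288 CPM in Abf1 90 min and at 17.3, 15.97 and 14.7 CPM in WT 90 min, or -4.98 on the log2 scale (SE 0.62; edgeR adjusted p = 7.77e-08). The difference was as large at 0 min, where it was -5.20, and its change between 0 and 90 min was 0.22 (SE 1.07, edgeR adjusted p = 0.932). The flocculin gene FLO1, which shares sequence with other FLO genes and whose counts are uncertain for that reason, likewise differed by -3.25 (SE 0.45) at 90 min and by -2.70 at 0 min. These 2 strain differences were present before rapamycin was added.

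The DNA upstream of 5 of the 10 lowest genes is shown because it holds a match to the Abf1 consensus, together with SUP35, an abundant lower gene, and 3 genes called higher. Among the 10 lowest, PRO3, SWM1 and PHO84 had no match to these letters in the window searched. Each sequence is taken from the R64 reference genome distributed by RefSeq, read 5′ to 3′ on the strand of its gene, with the match in capitals and flanking bases in lower case. The spellings searched on both strands were ATCACNNNNNACG, ATCATNNNNNACG, GTCACNNNNNACG and GTCATNNNNNACG, where N is any base, and a capital stretch that begins with CGT is a match on the opposite strand. The windows are chrIV:371036-371096 for NPC2, chrVII:635564-635624 for SMD1, chrXI:525161-525221 for PLN1, chrVII:921999-922059 for RSM27, chrIV:1084905-1084965 for TFB1 and chrIV:808116-808176 for SUP35, all called lower. RNP1 (chrXII:47628-47688), VIR1 (chrVII:428357-428417) and ABF1 (chrXI:226482-226542) were called higher and also hold a match. The centre of the match lay 174 bases before the coding start of NPC2, 118 before SMD1, 117 before PLN1, 146 before RSM27, 130 before TFB1 and 178 before SUP35. Among the higher genes it lay 195 bases before RNP1, 214 before VIR1 and 58 before ABF1.
NPC2: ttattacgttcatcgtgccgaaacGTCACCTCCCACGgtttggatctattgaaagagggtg
SMD1: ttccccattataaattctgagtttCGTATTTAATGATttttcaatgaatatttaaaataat
PLN1: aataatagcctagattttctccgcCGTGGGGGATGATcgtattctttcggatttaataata
RSM27: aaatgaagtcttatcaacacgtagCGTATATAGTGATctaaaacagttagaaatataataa
TFB1: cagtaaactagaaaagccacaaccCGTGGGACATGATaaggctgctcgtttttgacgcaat
SUP35: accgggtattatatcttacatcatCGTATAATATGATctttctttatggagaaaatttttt
RNP1: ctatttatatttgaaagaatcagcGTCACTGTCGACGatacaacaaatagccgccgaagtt
VIR1: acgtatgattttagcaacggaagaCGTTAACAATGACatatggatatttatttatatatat
ABF1: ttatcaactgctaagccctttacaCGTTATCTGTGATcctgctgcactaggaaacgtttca

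Across all promoters, taken as 250 bases before to 50 bases after the coding start, a match was present in 348 of 796 genes called lower (43.7%), 17 of 511 called higher (3.33%) and 163 of 4296 not called (3.79%), against 528 of 5603 in all (9.42%). Among genes lower by more than 4-fold the share was 107 of 169 (63.3%). Read the other way, 348 of the 528 genes with a match were lower (65.9%), 17 were higher (3.22%) and 163 were not called (30.9%), and their median log2 fold change was -1.07. The 5075 genes without a match had a median of 0.10, with 448 lower (8.83%) and 494 higher (9.73%). The cores of 2 other general regulatory factors were distributed differently. The Reb1 core TTACCCG was found in 16 promoters of genes called lower (2.01%) and 48 of genes called higher (9.39%), against 419 of all promoters (7.48%), and the Rap1 core ACCCANACA in 7 lower (0.879%) and 6 higher (1.17%), against 81 of all (1.45%). A match describes letters in a window and is not a measured binding site.

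The matches of genes called lower were concentrated in a narrow stretch. Their 363 matches had a median position 156 bases before the coding start (quartiles at -179.5 and -133), and 303 of them (83.5%) lay between -200 and -50. The 170 matches of genes not called had their median at -170, and 112 of them (65.9%) lay in the same stretch. The 17 matches of genes called higher had their median at -66. Genes that lie head to head share such a stretch, and many of them were lower together, as the neighbours below show.

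**Figure D2:**
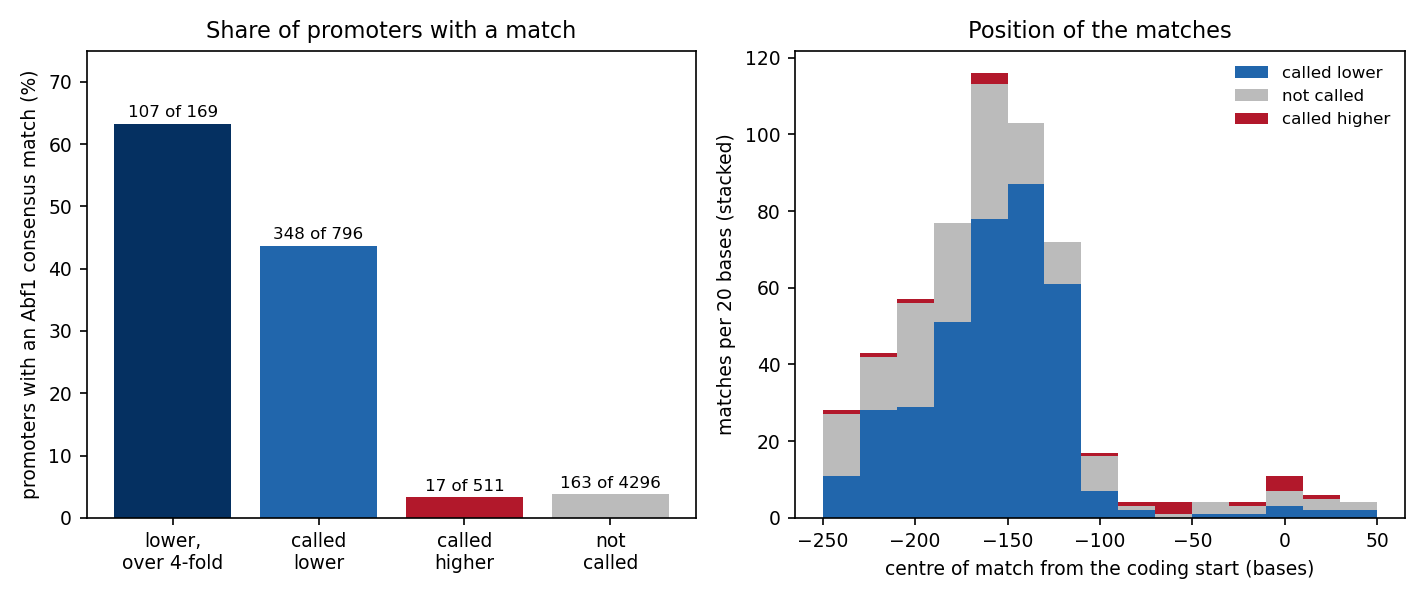
Left, bars give the percentage of promoters with an Abf1 consensus match among genes lower by more than 4-fold, called lower, called higher and not called, with counts above each bar. Right, stacked bars give the number of matches per 20 bases by distance of the match centre from the coding start. Matches of genes called lower (blue) pile up around their median at -156, and the share falls to 3.33% and 3.79% in the higher and not called genes.

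Neighbouring genes were then read by their arrangement. Of 401 genes called lower that have a tested gene upstream in the divergent orientation, 176 had that neighbour lower too (43.9%), against 13.9% of all divergent neighbours. For genes called lower with a tandem neighbour upstream, 57 of 395 neighbours were lower (14.4%), against 13.4% of all tandem neighbours. Of 1439 divergent pairs, 88 were lower on both sides, and 64 of these (72.7%) held an Abf1 consensus match in the window of at least 1 partner, against 231 of all pairs (16.1%). Pairs lower on one side and not called on the other held a match in 76 of 199 cases (38.2%), and the 23 pairs higher on both sides in 0. Divergent genes called higher had a higher neighbour in 46 of 266 cases (17.3%), against 9.24% of all.

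Some neighbours moved in opposite directions. Among divergent pairs 26 had one gene lower and the other higher, and 11 of these (42.3%) held a match. Such pairs were not frequent: divergent genes called lower had a higher neighbour in 26 of 401 cases (6.48%), against 9.24% of all divergent neighbours. ARO3 (YDR035W, chrIV:521816-522928), an enzyme that starts aromatic amino acid synthesis, stood at 6.15, 5.89 and 4.32 CPM in Abf1 90 min and 140, 129 and 130 CPM in WT 90 min, or -4.59 on the log2 scale (SE 0.32). The gene directly upstream on the same strand, CPP3 (YDR034W-B, chrIV:521314-521469), stood at 13.3, 22.7 and 19.3 CPM in Abf1 90 min and 0.818, 0.702 and 0.552 CPM in WT 90 min (4.68, SE 0.39). The groups did not overlap for either gene, and they separated in opposite directions. A second case, chosen after its values were seen, was the divergent pair PHO92, a YTH-domain reader of methylated mRNA, and WIP1, a kinetochore protein (chrIV:1223474-1224394 and chrIV:1224757-1225026). PHO92 had 14, 28 and 9 counts in Abf1 90 min against 2, 1 and 0 in WT 90 min (a ratio of 25.1, counting interval 8.10 to 125.5), and WIP1 had 0, 0 and 1 counts in Abf1 90 min against 59, 42 and 44 in WT 90 min (a ratio of 98.4 in favour of WT, 17.4 to 3914). Reads that start in one gene and run into the next cannot be told apart from reads of the next gene's own promoter in counts per gene, and whether the counting used strand was not stated. TFB1 and the next gene on its strand, SSF2, a ribosome biogenesis factor with the close paralog SSF1, were lower together, SSF2 at -3.77 (SE 0.25).

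The genes with the highest fold changes were mostly near 0 in WT. RNP1 (YLL046C, chrXII:46714-47463), a putative RNA-binding protein, had 74, 99 and 51 counts in Abf1 90 min, against 0, 3 and 0 in WT 90 min. On the log2 scale RNP1 differed by 6.60 (SE 0.45), and the ratio of summed counts was 110.0 with a 95% counting interval of 37.2 to 537.5. BIL2 (YGL015C, chrVII:465043-465435) had 59, 86 and 81 counts in Abf1 90 min and 1, 5 and 3 in WT 90 min (5.17, SE 0.46). These WT counts are too few to fix the size of either increase. SPR3 (YGR059W, chrVII:607563-609101), a septin of sporulation, stood at 6.64, 23.97 and 32.0 CPM in Abf1 90 min and 0.681, 0.176 and 0.919 CPM in WT 90 min (5.08, SE 1.06, edgeR adjusted p = 0.00022). The gene's Abf1 libraries spread widely but all lay above WT. At 0 min RNP1 differed by 2.14, BIL2 by 0.56 and SPR3 by 1.54, none of them called. The change between 0 and 90 min was called for RNP1 and BIL2 but not for SPR3 (edgeR adjusted p = 0.248).

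Other higher genes had more counts in WT. HSP12 (YFL014W, chrVI:107256-107585), a small heat shock protein of the membrane, stood at 349, 479 and 254 CPM in Abf1 90 min and 16.2, 15.3 and 23.2 CPM in WT 90 min, or 4.31 on the log2 scale (SE 0.40). FMP45 (YDL222C, chrIV:60872-61801), a membrane protein of the SUR7 family, stood at 109.9, 260.1 and 171.9 CPM in Abf1 90 min and 7.22, 5.27 and 6.25 CPM in WT 90 min (4.84, SE 0.72). CTT1 (YGR088W, chrVII:654634-656322), the cytosolic catalase, stood at 508, 622 and 317 CPM in Abf1 90 min and 45.4, 48.8 and 55.3 CPM in WT 90 min (3.28, SE 0.34). In all of them the lowest Abf1 library was several times the highest WT library. The remaining genes among the 10 highest were the spore aquaporin AQY1 (3.93, SE 0.38), the 6-phosphogluconate dehydrogenase GND2 (3.36, SE 0.73) and REC102 (3.34, SE 0.48), which is needed for meiotic recombination.

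**Figure D3:**
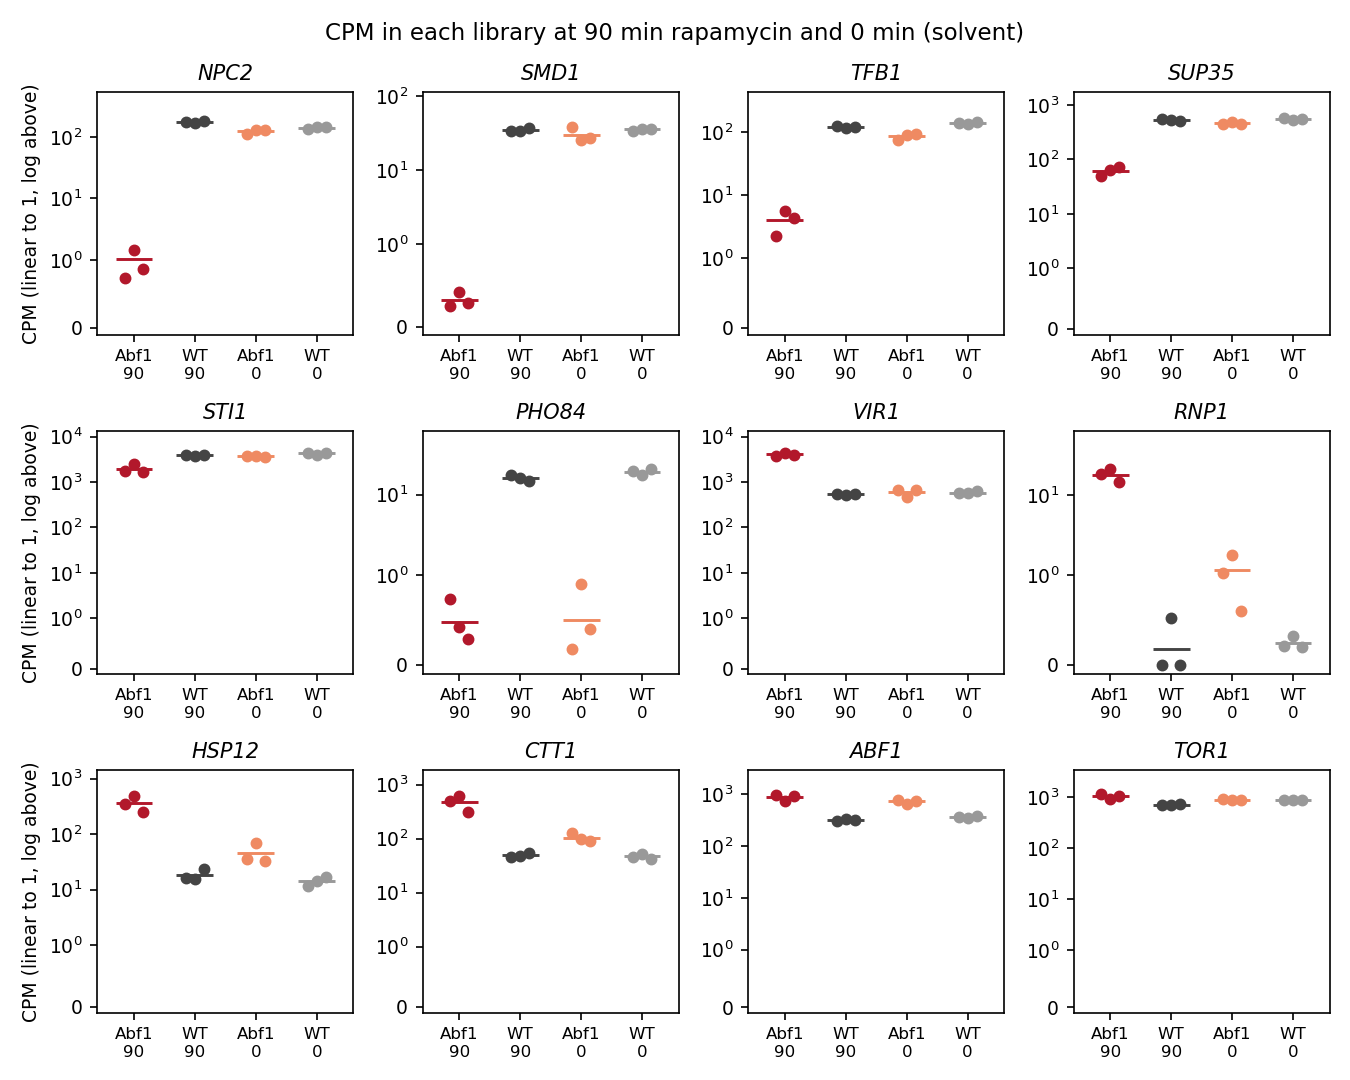
Points give the CPM of each library for 12 genes, on an axis that is linear up to 1 and logarithmic above, and bars give the mean of 3 libraries in Abf1 90 min, WT 90 min, Abf1 0 min and WT 0 min. NPC2, SMD1, TFB1 and SUP35 are far lower in Abf1 90 min than in the other groups. At 0 min the Abf1 mean is also below the WT mean, most for TFB1 (85.9 against 139 CPM), with SUP35 at 458 against 556 CPM. PHO84 is low in Abf1 at both times, ABF1 is high in Abf1 at both times, and VIR1 at 3805 to 4414 CPM is high in Abf1 90 min alone.

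By difference in mean CPM the largest losses and gains were in other genes. The losses were led by ZPR1, STI1, SIS1, FES1 and REA1. STI1 (YOR027W, chrXV:381053-382822), a co-chaperone that joins Hsp70 to Hsp90, stood at 1727, 2451 and 1641 CPM in Abf1 90 min and 4025, 3827 and 3835 CPM in WT 90 min (log2 fold change -1.01, SE 0.14). ZPR1, a chaperone of the translation factor eEF1A, stood at 1015, 1871 and 1188 CPM in Abf1 90 min and 3534, 3602 and 3763 CPM in WT 90 min (-1.42, SE 0.25). FES1, a nucleotide exchange factor of Hsp70, stood at 272, 670 and 319 CPM in Abf1 90 min and 1719, 1753 and 1701 CPM in WT 90 min (-2.03, SE 0.30). In each of the 3 genes replicate 2 was the highest of the Abf1 libraries, and the groups did not overlap. SIS1, an Hsp70 co-chaperone, differed by -0.78 (SE 0.18), a call that was lost when only the 6 libraries were fitted (edgeR adjusted p = 0.0141), and REA1, a giant ATPase of ribosome assembly, by -1.09 (SE 0.21). At 0 min ZPR1 already differed by -0.90, SIS1 by -0.39 and REA1 by -0.46, and STI1 and FES1 by -0.21 and -0.50. The change between 0 and 90 min was called for STI1 and FES1 but not for ZPR1, SIS1 or REA1.

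The gains were led by SNQ2, VIR1, TSL1, FLR1 and ALD6. VIR1 (YGL036W, chrVII:428601-431330), which belongs to the complex that methylates mRNA on adenosine in early meiosis, stood at 3805, 4414 and 3935 CPM in Abf1 90 min and 552, 519 and 552 CPM in WT 90 min. It was higher by 2.90 on the log2 scale (SE 0.13; edgeR adjusted p = 5.61e-18), the replicates were tight in both groups, and the difference at 0 min was 0.02. SNQ2 and FLR1, both drug exporters, were higher by 0.63 (SE 0.08) and 0.67 (SE 0.06), and SNQ2 was below the fold limit after a length trend was removed (0.49) and without Abf1 90 min replicate 3 (0.52). TSL1, a regulator of trehalose synthesis, was higher by 1.06 (SE 0.13) and ALD6, an aldehyde dehydrogenase, by 0.92 (SE 0.15).

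Lists of the transcription machinery differed among themselves, where 14.1% of all genes tested were lower. Of the 12 RNA polymerase II subunits 7 were lower (58.3%) and 1 was higher, with a median log2 fold change of -0.88, against 0.05 over all genes tested. RPC10 and RPB8, subunits shared by all 3 nuclear polymerases, differed by -1.83 (SE 0.24) and -1.47 (SE 0.18), while RPO21, the largest subunit, was higher by 0.75 (SE 0.10), or 0.56 and under the fold limit with the length trend removed. Of 40 TFIID and Mediator genes 6 were lower (15%), a share near that of all genes, and 1 was higher (2 without WT 90 min replicate 3), with a median of 0.03. TAF4 stood at 27.8, 28.6 and 22.2 CPM in Abf1 90 min and 149, 144 and 161 CPM in WT 90 min (-2.52, SE 0.15), and MED7 differed by -2.49 (SE 0.24). In TFIIH 2 of 11 genes were lower (18.2%), TFB1 the lowest. Of 15 Sm and Lsm genes 3 were lower (20%), SMD1 among them. Of 22 cleavage and polyadenylation factors 4 were lower (18.2%) and 1 higher (0 without Abf1 90 min replicate 2), with FIP1, a polyadenylation factor, at -2.21 (SE 0.12). Among 6 general regulatory factors ABF1 was higher and RAP1, which activates ribosomal protein genes, was lower (-0.74, SE 0.18), a call lost without Abf1 90 min replicate 2 (-0.57, edgeR adjusted p = 0.0211).

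Among genes for making ribosomes, 63 of 130 ribosome biogenesis factors were lower (48.5%, against 14.1% of all genes tested) and 0 higher, with a median of -0.64. In 107 of the 130 all 3 Abf1 libraries lay below the WT libraries, against 27.1% of all genes tested. Without Abf1 90 min replicate 2 the count of lower calls was 42, and over single libraries left out it ran from 42 to 73. The list's median at 0 min was already -0.29. Between 0 and 90 min the change of the strain difference was called lower for 22 of the 130, against 8.83% of all genes tested, and higher for 0. SSF2, described above, was the lowest of its members, followed by RRP1 (-2.69, SE 0.25), and both act on the large ribosomal subunit. Of 20 aminoacyl-tRNA synthetases 10 were lower (50%) and 0 higher, with a median of -0.62. DPS1, which charges aspartate, stood at 33.2, 25.4 and 18.7 CPM in Abf1 90 min and 203, 211 and 207 CPM in WT 90 min (-2.998, SE 0.24), and TYS1, which charges tyrosine, differed by -1.90 (SE 0.10). Of 38 translation factors 12 were lower (31.6%), or 9 without Abf1 90 min replicate 2, and 2 were higher. SUP35 (YDR172W, chrIV:808324-810381), the release factor eRF3, stood at 49.2, 63.5 and 72.6 CPM in Abf1 90 min and 546, 536 and 516 CPM in WT 90 min (-3.11, SE 0.16, edgeR adjusted p = 4.22e-16). TIF1, the helicase eIF4A, was lower (-3.44, SE 0.36) and TEF2, elongation factor eEF1A, was higher by 1.05 (SE 0.16), but each has a near-identical copy, so their counts are uncertain.

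Few ribosomal protein genes themselves were called. Of 138 cytosolic ribosomal protein genes, chosen by symbol with RPP1, a subunit of RNase P, among them, 5 were lower (3.62%) and 4 higher (2.9%). The list's median was 0.29 at 90 min, against 0.05 over all genes tested, and 0.24 at 0 min. In 63 of the 138 all 3 Abf1 libraries lay above the WT libraries, against 29.9% of all genes tested. In 11 they all lay below, against 27.1%. The higher calls dropped to 0 or 1 when any single library was left out, and the lower calls to 3 without WT 90 min replicate 1 or Abf1 90 min replicate 2. The list of mitochondrial ribosomal proteins was also chosen by symbol (MRP, MRPL or MRPS), so it leaves out RSM27. Of its 56 genes 17 were lower (30.4%, against 14.1% of all genes tested), with a median of 0.08. The 1 higher gene was MRP8, with 0 higher without Abf1 90 min replicate 2 and 2 without WT 90 min replicate 1 or 3. MRPL32 stood at 3.20, 2.52 and 2.88 CPM in Abf1 90 min and 40.2, 42.8 and 44.1 CPM in WT 90 min (-3.88, SE 0.33), and MRP49 differed by -3.70 (SE 0.28). The mitochondrial list thus held strongly lower members beside a majority that was not called.

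In protein folding and breakdown, members of the same complex differed. Of 35 proteasome genes 17 were higher (48.6%) and 7 lower (20%), against 9.33% and 14.1% of all genes tested, with a median of 0.57. Without Abf1 90 min replicate 2 the list had 13 higher calls and 8 lower calls. PRE6 and PRE2, which form the core particle, were higher by 0.91 (SE 0.09) and 0.84 (SE 0.08), and stood at 283 to 322 and 285 to 344 CPM in Abf1 90 min, against 157 to 165 and 174 to 184 CPM in WT 90 min. SCL1, another core subunit, stood at 24.3, 25.0 and 31.4 CPM in Abf1 90 min and 166, 162 and 157 CPM in WT 90 min (-2.59, SE 0.15), and RPN8, of the regulatory particle, differed by -1.73 (SE 0.12). Subunits of 1 complex therefore moved in opposite directions. Of the 8 genes of the CCT chaperonin, which folds actin and tubulin, 3 were lower, with CCT5 at -2.14 (SE 0.16) and CCT8 at -1.19 (SE 0.09), and TCP1 was higher by 0.61 (SE 0.11), a call lost under 8 of 16 alternatives, among them DESeq2 (0.58), WT 90 min replicate 3 left out (0.57) and Abf1 90 min replicate 3 left out (0.51). Of 29 heat shock chaperones 5 were lower and 3 higher, but 11 were lower without Abf1 90 min replicate 2. SSE2, an exchange factor of Hsp70, stood at 144, 135 and 108 CPM in Abf1 90 min and 875, 876 and 909 CPM in WT 90 min (-2.78, SE 0.31).

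In the nucleus and in the secretory and respiratory systems single members were strongly lower. Of 55 chromatin remodeller genes 16 were lower (29.1%, against 14.1% of all genes tested) and 3 higher. ARP5, of the INO80 complex, stood at 32.7, 34.1 and 32.3 CPM in Abf1 90 min and 291, 274 and 311 CPM in WT 90 min (-3.14, SE 0.15), and IOC3, of the ISW1a complex, differed by -3.25 (SE 0.18) and was already called at 0 min (-0.78). Of 46 nuclear pore and karyopherin genes 12 were lower (26.1%) and 0 higher. KAP120, a nuclear import receptor, stood at 37.6, 35.5 and 40.6 CPM in Abf1 90 min and 224, 244 and 223 CPM in WT 90 min (-2.60, SE 0.10), and GLE2, which acts in mRNA export, differed by -2.82 (SE 0.21). SEC16 (YPL085W, chrXVI:387067-393654), which organises COPII budding sites, stood at 96.9, 63.1 and 98.2 CPM in Abf1 90 min and 1083, 1077 and 1067 CPM in WT 90 min (-3.65, SE 0.21), and was 1 of 2 lower members among 16 coat genes (12.5%). The respiratory list had 7 of 39 lower (17.9%) and 1 higher (0 without any of the WT 90 min libraries or without Abf1 90 min replicate 2, and 2 without Abf1 90 min replicate 1), with QCR9, of complex III, at -3.60 (SE 0.28) and ATP16, of ATP synthase, at -3.22 (SE 0.22).

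Of 28 cell cycle regulators 6 were lower (21.4%, against 14.1% of all genes tested), or 4 without Abf1 90 min replicate 2. Of 57 DNA replication genes 11 were lower (19.3%), with 8 lower without Abf1 90 min replicate 2 and up to 14 with another library left out. Each list had 1 higher member, a call lost in the cell cycle list without WT 90 min replicate 2 or Abf1 90 min replicate 1, and in the replication list without any of the WT 90 min libraries or without Abf1 90 min replicate 2. FIN1, a protein of the mitotic spindle, stood at 3.44, 4.42 and 1.15 CPM in Abf1 90 min and 62.1, 60.4 and 66.0 CPM in WT 90 min (-4.32, SE 0.25). POL31, a subunit of DNA polymerase delta, differed by -2.31 (SE 0.12). None of the 11 histone genes was called, and the most abundant, HHT2, stood at 387 to 453 CPM in Abf1 90 min and 454 to 506 CPM in WT 90 min.

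Genes of stress and nutrient responses are given next, where 9.33% of all genes tested were higher and 14.1% lower. Of 34 general stress and carbohydrate reserve genes 11 were higher (32.4%) and 1 lower, with a median of 0.54. Without Abf1 90 min replicate 2 the higher calls of that list fell to 8. Of 30 oxidative stress genes 9 were higher (30%) and 2 lower, with a median of 0.49. TSA2, a peroxiredoxin, stood at 284, 435 and 220 CPM in Abf1 90 min and 49.7, 44.4 and 53.3 CPM in WT 90 min (2.67, SE 0.25), and was already higher at 0 min (1.45). GPX1, a peroxidase, was higher by 2.18 (SE 0.42). MSN4, an activator of stress genes, was the lower member of the general stress list (-0.95, SE 0.24). In the nitrogen catabolite list 7 of 29 were higher (24.1%) and 1 lower, though 4 were higher without WT 90 min replicate 3. The urea transporter DUR3 stood at 78.7, 83.7 and 67.1 CPM in Abf1 90 min and 16.8, 18.8 and 16.9 CPM in WT 90 min (2.13, SE 0.16), and the amino acid permease GAP1 was higher by 1.48 (SE 0.19) after 0.98 at 0 min. Between 0 and 90 min the change of the strain difference was called higher for 3 of the 34 general stress genes and 4 of the 30 oxidative stress genes. In the nitrogen catabolite list it was called higher for 1 of 29, against 2.81% of all genes tested. It was called lower for 0, 1 and 1 members of these lists, in that order. Of 19 phosphate regulon genes 5 were lower (26.3%) and 4 higher (21.1%). PHO85, the kinase that controls the regulon, stood at 6.89, 7.78 and 4.32 CPM in Abf1 90 min and 66.0, 70.9 and 65.6 CPM in WT 90 min (-3.39, SE 0.21).

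Metabolic lists were mixed, where 14.1% of all genes tested were lower and 9.33% higher. Of 73 amino acid synthesis genes 13 were lower (17.8%), PRO3 and ARO3 the lowest, and 8 were higher (5 without Abf1 90 min replicate 2), with a median of 0.06. Of 32 sterol genes 6 were lower, NPC2 and HMG2 the lowest, and 1 higher. HMG2, an HMG-CoA reductase, stood at 17.2, 12.8 and 12.4 CPM in Abf1 90 min and 251, 246 and 238 CPM in WT 90 min (-4.11, SE 0.24). Of 25 glycolysis genes 3 were lower (1 without Abf1 90 min replicate 1) and 6 higher (4 without Abf1 90 min replicate 2). Their change of the strain difference between 0 and 90 min was called higher for 0 and lower for 1. Of 12 promoters long known to hold an Abf1 site, 5 belonged to genes that were lower (41.7%) and 3 to genes that were higher (25%). SPR3 and ABF1 were among the higher genes. Of 16 flocculin and cell wall genes 5 were higher, FLO1 was lower, and only 2 were higher without Abf1 90 min replicate 2 and 3 without WT 90 min replicate 2, WT 90 min replicate 3 or Abf1 90 min replicate 1. Hexose transporters had 1 higher of 14 (7.14%, against 9.33% of all genes tested), or 2 without WT 90 min replicate 3. Silencing genes had 1 lower of 7 (14.3%, against 14.1% of all). The haploid mating pathway had 2 lower of 18 (11.1%), which became 4 without Abf1 90 min replicate 3 and 1 without any other single library.

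Meiotic genes and autophagy genes had members that were higher and none that were lower. Of 63 meiosis and sporulation genes 46 had enough counts to be tested. Of these 13 were higher (28.3%, against 9.33% of all genes tested), falling to 8 without WT 90 min replicate 1. A gene that passed the count filter only through the group where it is high had to differ, so the 13 are not a share of all 63. SPO19, a protein of the spore membrane, had 42, 31 and 21 counts in Abf1 90 min and 0 in each WT 90 min library, at least 46.2-fold higher against a floor of 3 counts over the WT group, or 36.8-fold by the lower limit of the 95% counting interval. VIR1, SPR3 and REC102, described above, were members of the list. Of 35 autophagy genes 10 were higher (28.6%, against 9.33% of all genes tested), but 5 without Abf1 90 min replicate 2. Between 0 and 90 min the change of the strain difference was called higher for 3 of these 35 and for 4 of the 46 meiosis and sporulation genes. It was called lower for 0 in both lists. ATG36, the receptor for breakdown of peroxisomes, stood at 61.5, 63.9 and 57.9 CPM in Abf1 90 min and 12.5, 9.13 and 9.01 CPM in WT 90 min (2.57, SE 0.16), and was higher by 0.81 at 0 min. ATG39, the receptor for breakdown of the nucleus, was higher by 1.73 (SE 0.49), a call lost when any WT 90 min library was left out and without Abf1 90 min replicate 2 (1.04, edgeR adjusted p = 0.116).

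Small RNA genes went both ways. Of 78 small nuclear and nucleolar RNA genes 16 were higher (20.5%, against 9.33% of all genes tested). In the same list 9 were lower (11.5%, against 14.1%), and the median was 0.36. The higher calls fell to 9 without WT 90 min replicate 3, 9 without Abf1 90 min replicate 1 and 10 without WT 90 min replicate 1, and the lower calls ran from 8 to 10. The list's median at 0 min was 0.16. Its change of the strain difference between 0 and 90 min was called higher for 0 of the 78, against 2.81% of all genes tested, and lower for 7. SNR84, a guide of pseudouridine formation, stood at 78.7, 46.0 and 72.3 CPM in Abf1 90 min and 13.2, 12.8 and 12.9 CPM in WT 90 min (2.34, SE 0.50), and SNR17B, a copy of the U3 RNA whose near-identical partner makes its counts uncertain, was higher by 2.58 (SE 0.77), a call lost without any one of 5 of the 6 libraries. None of the 19 tRNA genes tested was called.

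**Figure D4:**
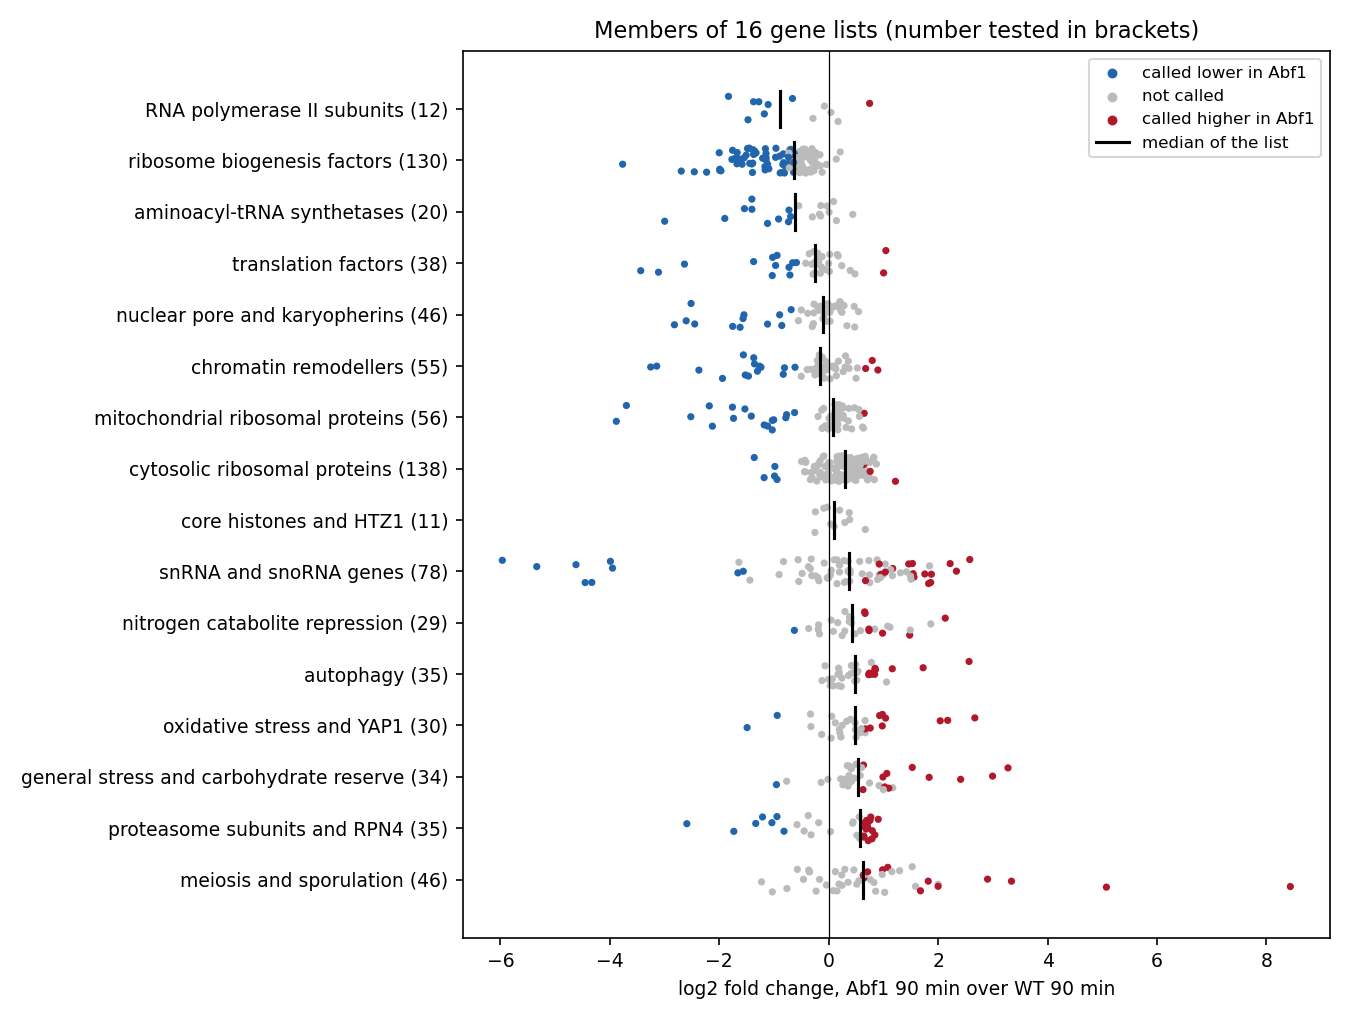
Each point is a tested member of 1 of 16 gene lists, placed by its log2 fold change, Abf1 90 min over WT 90 min, with the number tested in brackets and the list's median as a bar. Ribosome biogenesis factors lie almost wholly below 0 with a median of -0.64, proteasome genes have a median of 0.57 with a separate lower group, and the 11 histone genes hold no call.

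To learn how much of the difference the tag had made before depletion, the strains were compared at 0 min in 6 other libraries. There 16 genes were lower (0.28%) and 14 higher (0.245%). These counts were unsteady, since leaving out any 1 of the 6 libraries gave 8 to 10 lower genes and 3 to 12 higher genes. Of the 805 genes lower at 90 min 15 were already lower at 0 min, with a median log2 difference of -0.21, and of the 534 higher at 90 min 13 were already higher, with a median of 0.22. Most called genes were thus shifted slightly in the same direction before rapamycin: 723 of the 805 (89.8%) lay below 0 and 454 of the 534 (85%) above 0, where 48.4% of the genes not called lay below 0. The change of the strain difference between the 2 times was called lower for 505 genes (8.83%) and higher for 161 (2.81%). It includes the 90 min libraries, so its calls are not separate evidence. With the replicate number within each strain as a block, a fit added after seeing the data, 626 genes were lower (10.9%) and 269 higher (4.7%). Of the genes called at 90 min, 500 of 805 and 152 of 534 were also called in the same direction without the block. With the block these counts were 593 and 237.

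**Figure D5:**
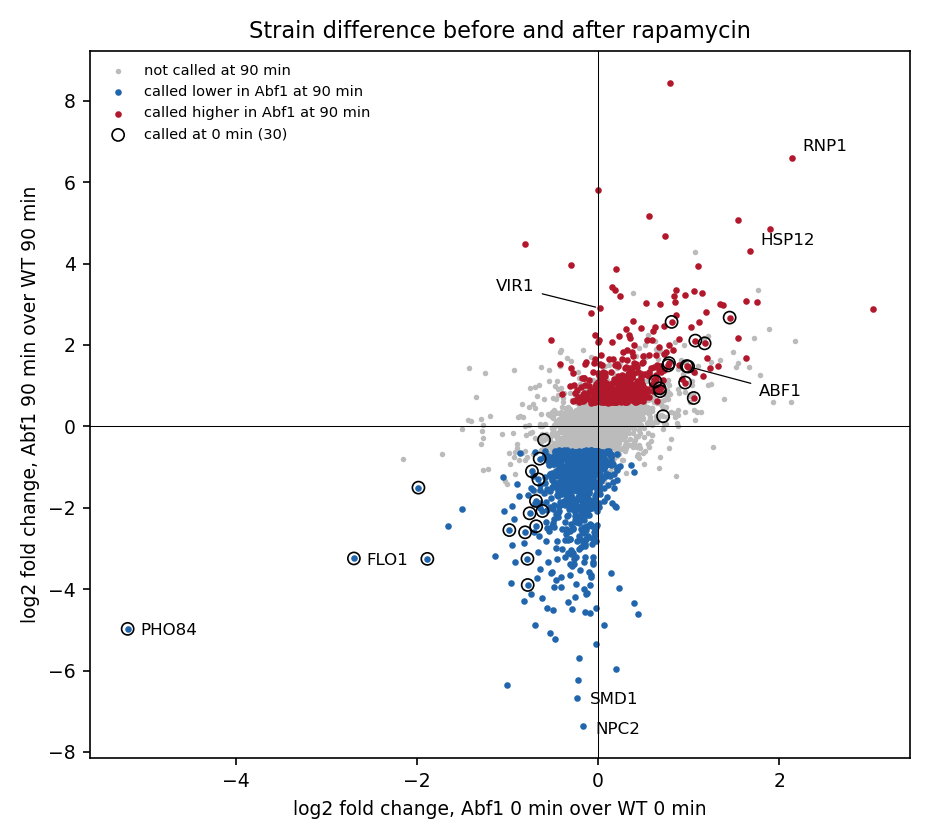
Each point is 1 gene, with its log2 fold change between the strains at 0 min on the horizontal axis and at 90 min on the vertical axis, from separate libraries. The 30 genes called at 0 min are circled. NPC2, SMD1 and VIR1 lie near 0 on the horizontal axis, and PHO84 lies near -5 on both.

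The genes called between the strains were also read in libraries that the comparison did not use, Abf1 75 min against Abf1 0 min, a choice made after seeing the data. Both of these groups are the tagged strain, and they differ in rapamycin against solvent. Unlike the comparison between the strains, this one therefore does not hold the drug equal and leaves out strain differences present at 0 min. Same-numbered Abf1 75 min and Abf1 90 min libraries deviated from their group means together (r = 0.82, 0.78 and 0.40), so these libraries are separate but not independent of those compared. There 648 of 5722 genes were lower (11.3%) and 271 higher (4.74%). Of the 805 genes lower at 90 min 605 were lower at 75 min (75.2%), with a median log2 fold change of -1.04, and 793 (98.5%) lay below 0. Of the 534 higher genes 197 were higher at 75 min (36.9%), with a median of 0.60, and 527 (98.7%) lay above 0. None was called in the opposite direction. NPC2 stood at -6.63 (SE 0.39) and VIR1 at 3.04 (SE 0.13) in that comparison. Of the 118 named genes called between the strains 34 were not called at 75 min, among them ZPR1 (-0.21, SE 0.24), SIS1 (-0.05, SE 0.18), ALD6 (0.19, SE 0.14) and PHO84 (-0.67, SE 0.93), and 9 of the 34 were called with the replicate number within the strain as a block.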

How the data were processed

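Paired-end 4tU-seq reads had been aligned by the authors to sacCer3 with HISAT2 2.0.5, reduced to 1 read per combination of molecular identifiers and assigned to genes with featureCounts of Subread 1.6.5. The authors deposited whole-number counts per gene, unnormalised, for 39 libraries, and these counts were used. Their table of comparisons holds the mean, log2 fold change and adjusted p of each gene (DESeq2 1.10.1) and was not used. Identical identifiers were merged, so counts approximate molecules. The study added together counts from separate sequence runs, and whether identifiers were merged across the runs was not stated. A molecule read in more than 1 run may therefore have been counted more than once. Intervals cover counting error only. Total counts and 3-count floors are given in the report.

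Counts were fitted with edgeR 4.0.16 (limma 3.58.1, R 4.3.3), with TMM factors, filterByExpr at a minimum count of 10 and 1 coefficient per group over all 39 libraries, and tested with the quasi-likelihood F-test. The filter kept 5722 of 6420 features with 99.99% of the counts. Of the features 6142 matched the R64 annotation and 88 were 0 in every library. Calls needed a Benjamini-Hochberg adjusted p under 0.01 over all genes and a fold change over 1.5. Promoters were cut from the R64 genome. The fit was tested on simulated data first.

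Genes were named by rule: ABF1, FPR1, TOR1 and RPL13A; the 10 lowest and 10 highest fold changes among called genes with a symbol, non-overlapping groups and a mean of 50 counts or more where higher; the 5 largest losses and gains in CPM; and up to 2 lowest and 2 highest called members of each list (the most abundant member where none was called). Genes outside it are said to be chosen later. The members and lists were chosen with earlier results of these data known. Alternatives were DESeq2 1.42.0, RLE, upper-quartile and total-count scaling, no filter, fewer libraries in the fit, a replicate block, a length correction, an adjusted p of 0.05 and each library left out. Deviations from group means of same-numbered Abf1 and WT 90 min libraries correlated at 0.12, -0.04 and -0.13, so the numbers do not pair the strains. Between 0 and 90 min they correlated at 0.66, 0.28 and 0.25 within Abf1 and at 0.06, 0.12 and 0.09 within WT. Between 0 and 75 min they correlated at 0.66, 0.28 and 0.28 within Abf1. Differently numbered Abf1 libraries reached similar values, 0.34 for replicate 2 at 90 min with replicate 3 at 0 min. For replicate 2 at 75 min with replicate 3 at 0 min the value was 0.40. Across these times only Abf1 replicate 1 clearly tracked its number. Strand use in counting was not given in the sources used here.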

Additional observations from a re-analysis of the deposited data

Results flagged for a closer look

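The strain difference, Abf1 over WT, changed between 0 and 90 min in 76 of the 124 named genes by the interaction term of the edgeR fit, 51 toward lower and 25 toward higher values in Abf1. Over all 5722 genes 8.83% changed toward lower and 2.81% toward higher values. Most named genes were picked for their 90 min values, which this term uses again, so the count describes them and supports nothing more. With the replicate number within each strain as a block, 92 changed, SPR3, FMP45, GND2 and MSN4 among the 16 added. The genes described above are given here with that change on the log2 scale.

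Among the 10 lowest at 90 min the change was called for NPC2 (-7.19), SMD1 (-6.43), SNR55 (-6.16), RSM27 (-5.48), PLN1 (-5.36), SNR57 (-5.31), PRO3 (-4.74), SWM1 (-4.56) and TFB1 (-4.19), and not for PHO84. Among genes of transcription, RNA processing and chromatin it was called for ARP5 (-2.85), IOC3 (-2.47), TAF4 (-2.24), MED7 (-2.22), RPC10 (-1.90), RPB8 (-1.48), FIP1 (-1.87) and RPO21 (0.73). Genes of ribosome assembly and translation were SSF2 (-3.30), TIF1 (-3.15), SUP35 (-2.83), DPS1 (-2.53), RRP1 (-2.05), TYS1 (-1.75) and TEF2 (0.95). Mitochondrial genes were QCR9 (-3.74), MRPL32 (-3.64), MRP49 (-3.62) and ATP16 (-3.16).

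Genes of protein folding and breakdown were SCL1 (-2.55), SSE2 (-2.47), CCT5 (-2.01), RPN8 (-1.83), FES1 (-1.54), CCT8 (-1.31), STI1 (-0.80), PRE2 (0.69) and PRE6 (0.74). Genes of metabolism, transport, the cell cycle and replication were ARO3 (-4.50), FIN1 (-3.99), HMG2 (-3.37), SEC16 (-3.34), PHO85 (-3.08), KAP120 (-2.26), GLE2 (-2.24), POL31 (-2.08), SNQ2 (0.65) and DUR3 (1.59). Genes of stress, autophagy and meiosis were TSL1 (0.75), TSA2 (1.22), ATG36 (1.75), CTT1 (2.12), HSP12 (2.64), AQY1 (2.83), VIR1 (2.89) and REC102 (3.15), and genes near 0 in WT were CPP3 (3.94), RNP1 (4.46) and BIL2 (4.61).

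Of 21 alternatives, the call of this change held in 8 for TSA2 (0.88 to 1.39), 12 for FES1 (-2.08 to -1.36), 17 for SNQ2 (0.50 to 0.70) and 18 for TSL1 (0.60 to 0.80) and RNP1 (3.81 to 7.53). RNP1 lost it without WT 0 min replicate 2 or WT 90 min replicate 1, and TSL1 without Abf1 0 min replicate 2 or Abf1 90 min replicate 2.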

How the results depend on the processing

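At 90 min no alternative moved the counts of lower or higher genes by over 1.5 times. Lower genes ran from 696 with upper-quartile scaling to 885 with the replicate block, and higher genes from 362 without Abf1 90 min replicate 2 to 749 with upper-quartile scaling. No named gene changed direction past a threshold.

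The counts at 0 min moved more. Genes lower at 0 min numbered 33 with DESeq2, 10 with total counts alone, 37 with the replicate block, 32 at an adjusted p of 0.05 and 8 to 10 with 1 library left out. Genes higher at 0 min numbered 8 when only the libraries compared were fitted, 7 with the 12 libraries at 0 and 90 min, 34 with the replicate block, 28 at an adjusted p of 0.05 and 3 to 12 with 1 library left out. The change of the strain difference was called higher for 246 genes with the replicate block and 252 at an adjusted p of 0.05. The cause was not tested. A looser spelling of the Abf1 consensus matched 56.4% of promoters of lower genes, 6.26% of higher genes and 15.0% of all. Across the strains same-numbered replicates share only a number. Within Abf1 only replicate 1 clearly tracked its number between 0 and 90 min. With a replicate block within each strain, the change was called higher for 269 genes and lower for 626. No call of the main fit was lost. Sizes for genes under about 10 counts are limited by depth.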
